A study of Mus musculus with 21 samples.

Results

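The regions described here are the 479 stretches of mouse chromatin that had no called open site in the all-lymphoid progenitor (ALP), opened in the early innate lymphoid progenitor (EILP), were still open in the innate lymphoid cell precursor (ILCP) and carried a TCF1 peak in EILP. They were chosen from DNase I hypersensitive sites (DHS), the peaks of DNase-seq tags that mark accessible DNA. The DHS peaks of the 3 stages were merged wherever they shared 1 bp, which gave 102313 regions on chromosomes 1 to 19 and X. A region was taken when it held an EILP peak and an ILCP peak, no ALP peak, and overlapped a TCF1 peak by 1 bp or more. Presence or absence of a peak call at the authors' q cutoff of 0.05 chose the members, so their openness and their TCF1 binding are the choice itself and not a result. Of the 68949 regions with an EILP peak, 13.7% were opened and kept, 5.62% held a TCF1 peak, and 0.695% met all of these conditions.

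All cells were sorted from bone marrow of C57BL/6 mice. ALP were sorted as Lin- Kit+ 2B4+ cells that lack a4b7 and are Flt3high and IL-7Ra+. EILP were Lin-, Kit+ and 2B4+ as well, with a4b7 and Tcf7 and without Thy1, and ILCP had the EILP profile plus Thy1 and IL-7Ra. Per the labels, EILP carried Tcf7EGFPnull/+ whereas ALP and ILCP carried Tcf7EGFP/+, so every group has an EGFP allele of Tcf7, the gene of TCF1, and only EILP has the one named null. The source label of EILP and the pooled files of all 3 stages say WT, and this conflict could not be settled. As labelled, the genotype of EILP cannot be told apart from its stage in any comparison. DNase-seq had 3 libraries of 300 cells per stage. CUT&RUN, in which an antibody brings micrococcal nuclease to the bound protein, was made in EILP with 6 TCF1 and 4 IgG libraries of 500 cells each, some of them technical repeats. A further 2 CUT&RUN libraries, whose labels name both TCF1 and IgG, belong to no group here, although the file header lists their number in the pooled IgG control. The lists give positions with no gene names, so the sorted cell types were not checked against marker genes, and regions are named by their position on build mm9.

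TCF1 is a DNA-binding protein of the HMG-box family that bends DNA and is known as an early regulator of T cell and innate lymphoid cell development. EILP are known as early progenitors of the innate lymphoid lineages, and ILCP as precursors that give rise to helper innate lymphoid cells. A DHS that appears at a stage and persists is commonly an enhancer or promoter that proteins have begun to occupy.

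Each stage had 1 peak list, made after its libraries were pooled, and so had TCF1. No value below therefore has a replicate error, and no difference was tested. After pooling, ALP had 12420429 tags, EILP 11236009 and ILCP 12681410. The TCF1 libraries together had 2418839 tags and their control 2919489. Peak height is how many extended tags cover the summit, and for comparison between stages it was scaled to 1000000 tags of its file (RPM). Intervals of shares are 95% Wilson intervals and cover the counting of regions only.

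The TCF1-bound regions that opened at EILP were modest in height in EILP and taller in ILCP. In ILCP their height ran from 6 to 53 tags with a median of 17, and in EILP from 5 to 36 tags with a median of 12. The medians were 1.34 RPM in ILCP and 1.07 RPM in EILP. The regions opened and kept without a TCF1 peak, 9001 in number, had medians of 0.946 RPM in ILCP and 0.890 RPM in EILP. Unbound means here that no TCF1 peak was called from 2418839 tags, and TCF1 signal under the cutoff was not measured. The part of TCF1 detection in differences between bound and unbound regions was not tested. The TCF1-bound regions that were open at all 3 stages, 3117 in number, were taller at both stages, with medians of 2.21 RPM in ILCP and 2.40 RPM in EILP. Median EILP peak length was 203 bp in the 479 regions, 166 bp in the unbound opened-and-kept regions and 326 bp in the TCF1-bound regions open throughout. These heights belong to peaks that the choice required, so they describe the regions and support nothing.

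**Figure D1:**
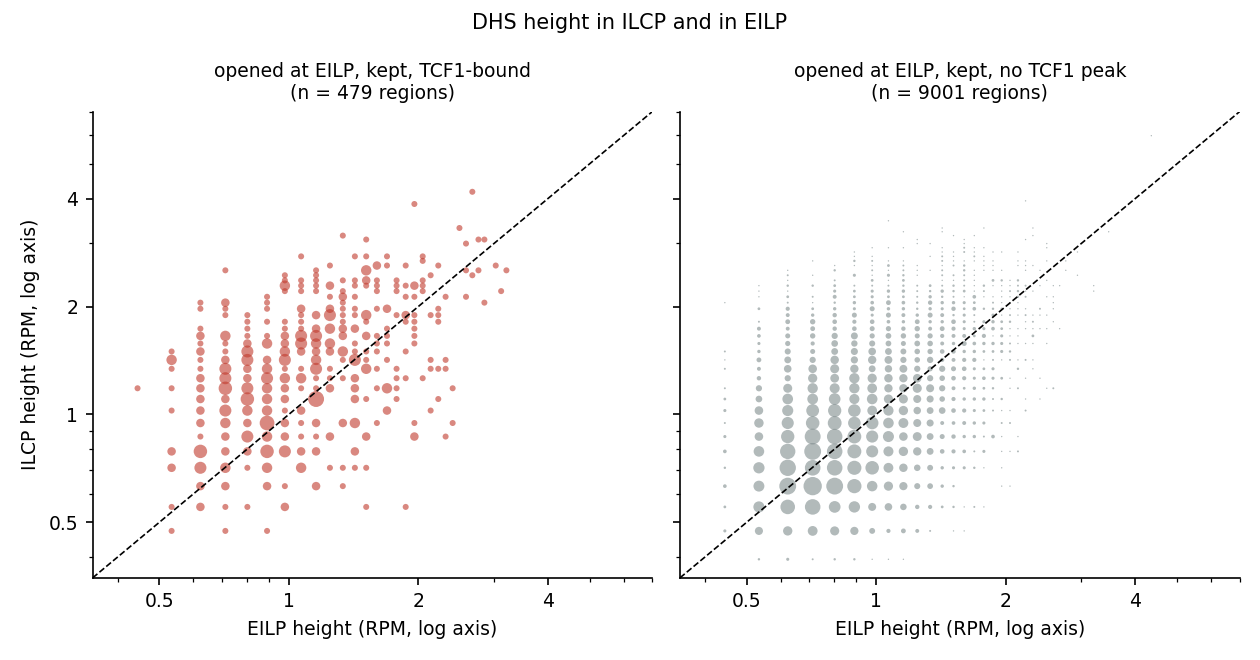
Height of each region in ILCP (vertical axis) against EILP (horizontal axis), both in RPM on log axes, for the 479 TCF1-bound (left) and the 9001 unbound (right) regions opened at EILP and kept. The area of a circle is proportional to the share of the panel's regions at that pair of tag counts, and the dashed line marks equal height; 68.5% of the TCF1-bound and 55.6% of the unbound regions lie above it.

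The lack of an ALP peak is a matter of the cutoff, because ALP signal under it was not measured here. The lowest ALP peak had 5 tags, or 0.403 RPM, and the median ALP peak had 1.05 RPM. The median peak had 13 tags at each stage, which is 1.16 RPM in EILP and 1.03 RPM in ILCP. The EILP median of the 479 regions, 1.07 RPM, was thus above the median ALP peak but below the median EILP peak. In ILCP, 72.0% (67.8 to 75.9) of the 479 regions were taller than the median ALP peak, and in EILP 54.5% (50.0 to 58.9) were. The corresponding shares of the unbound opened-and-kept regions were 40.2% (39.1 to 41.2) in ILCP and 34.0% (33.0 to 34.9) in EILP.

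The 479 regions were more often higher in ILCP than in EILP. Both heights come from peaks that the choice required, so the ratios are a description. Most of all regions open at both stages had an ALP peak, which the choice excluded, so the unbound opened-and-kept regions are the nearer comparison. The median ratio of ILCP to EILP height was 1.25 (log2 0.32, quartiles -0.08 and 0.69) in the TCF1-bound opened-and-kept regions. It was 1.06 (log2 0.09, quartiles -0.29 and 0.48) in the unbound ones and 0.938 (log2 -0.09) in TCF1-bound regions open throughout, and over all 49331 regions open at both stages it was 0.960 (log2 -0.06). ILCP was at least 1.5-fold higher in 154 of the 479 regions, or 32.2% (28.1 to 36.5), against 10.0% of all regions open at both stages. It was at least 1.5-fold lower in 43 of them, or 8.98% (6.73 to 11.9), against 15.9% of all regions open at both stages. ILCP was the higher of the 2 stages in 328 of the 479, or 68.5% (64.2 to 72.5), where the share over all regions was 44.5%. Unbound opened-and-kept regions lay between, with 20.2% (19.4 to 21.1) at least 1.5-fold higher and 11.0% (10.3 to 11.6) at least 1.5-fold lower. With the authors' fold enrichment in place of height, which divides by local background, the median log2 ratio was 0.28 in the TCF1-bound and 0.14 in the unbound opened-and-kept regions, and over all regions open at both stages it was 0.03, no longer below 0. It was also 0.03 over all these regions when heights were scaled by their medians over regions open at all 3 stages. Under that scaling 187 of the 479 TCF1-bound regions were at least 1.5-fold higher and 32 at least 1.5-fold lower, while all regions had 6455 higher and 6055 lower, against 4955 higher and 7864 lower without it. By fold enrichment, 122 TCF1-bound regions (25.5%) were at least 1.5-fold higher and 24 (5.01%) lower, against 4726 higher (9.58%) and 4188 lower (8.49%) of all regions. Of the unbound opened-and-kept regions, 17.6% were higher and 5.17% lower on this scale. The lower share was thus close to that of the TCF1-bound ones.

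**Figure D2:**
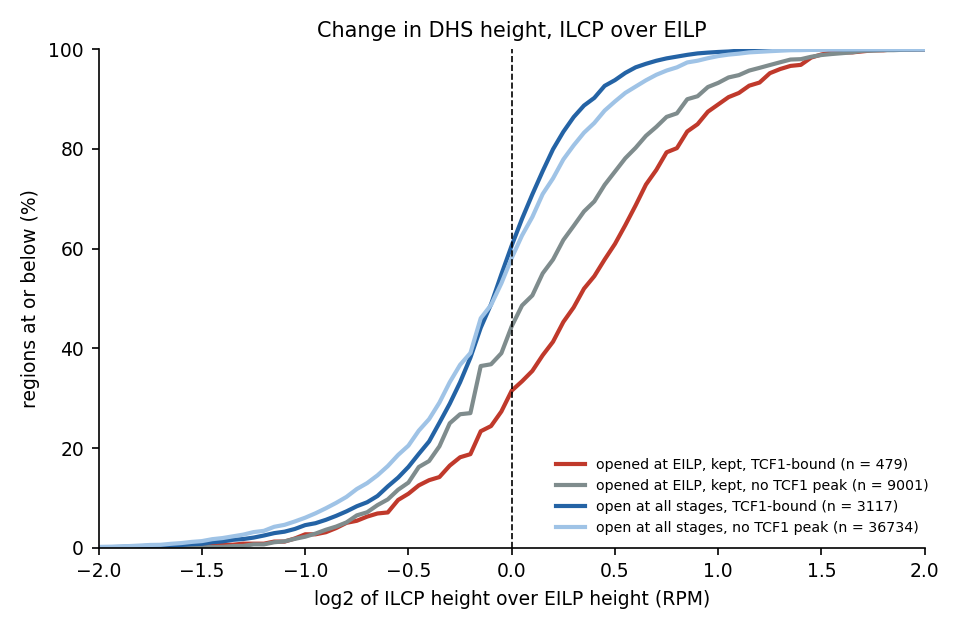
Cumulative share of regions (vertical axis, percent) by the log2 ratio of ILCP to EILP height in RPM (horizontal axis), for the 4 classes of regions open at both stages. The curve of the 479 TCF1-bound regions opened at EILP and kept lies farthest right over most of its length, with a median of 0.32, against 0.09 for unbound ones and -0.09 for TCF1-bound regions open at all stages.

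The ratio moved with the height of a region, and the TCF1-bound regions were taller than the unbound ones. The opened-and-kept regions were therefore split into 5 strata of the mean of their ILCP and EILP heights. From the lowest to the highest stratum, the median log2 ratio of the TCF1-bound regions was 0.05, 0.15, 0.36, 0.37 and 0.37. That of the unbound regions was -0.0047, 0.11, 0.07, 0.17 and 0.29. The TCF1-bound median was the higher one in 5 of 5 strata, by little in the first, second and highest, and the quartile ranges overlapped in each. The highest stratum held 228 of the 479 TCF1-bound regions and 1667 of the 9001 unbound ones. The part that height plays in the difference between the whole classes was not tested.

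**Figure D3:**
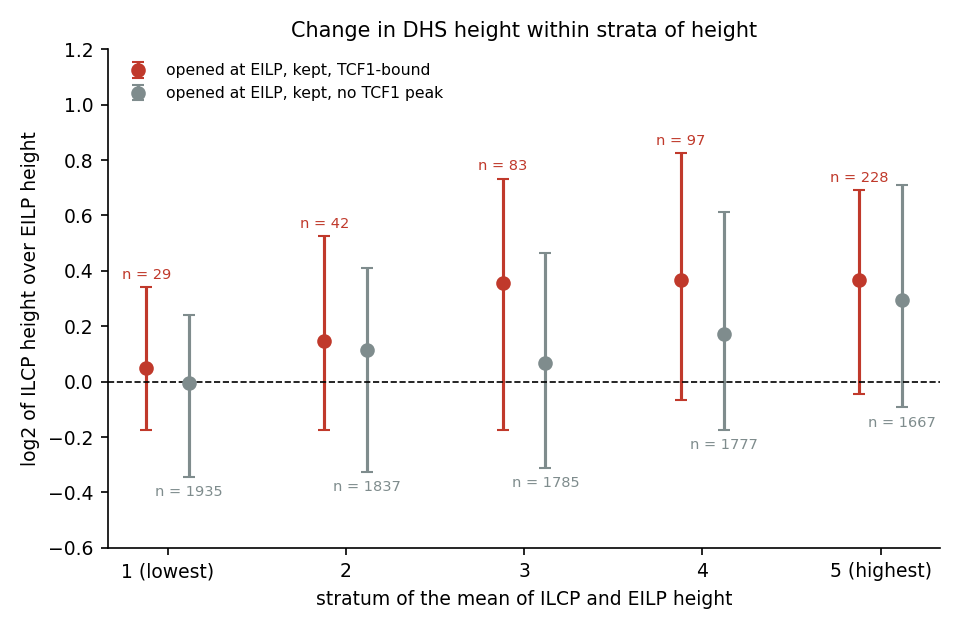
Log2 ratio of ILCP to EILP height (vertical axis) in 5 strata of the mean of both heights (horizontal axis), for TCF1-bound (red, left of each pair) and unbound (grey) regions opened at EILP and kept. Points are medians, bars run from the lower to the upper quartile and n is the number of regions; in the highest stratum the medians are 0.37 and 0.29.

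Counting error leaves most single regions undecided. For each region a 95% interval of the ILCP to EILP ratio was worked out from its 2 summit heights. It treats them as Poisson counts at a fixed site and covers counting error only. Each height is instead the maximum of a called peak, and the 2 summits of the 479 regions lay a median of 35 bp apart. The interval allows neither for this nor for the peak cutoff, so it is approximate. It lay wholly above 1 in 38 of the 479 regions (7.93%) and wholly below 1 in 9 (1.88%). Among the 9001 unbound regions it lay above 1 in 345 (3.83%) and below 1 in 42 (0.467%). Such an interval narrows as tags rise, and both shares were larger in the TCF1-bound regions, which had more tags. Their median heights were 17 tags in ILCP and 12 in EILP, against 12 and 10 in the unbound regions. The part of tag number in these shares was not tested. The shares over all regions open at both stages were not worked out.

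Among the 223 TCF1-bound regions with at least 1 RPM at both stages, the largest ratio was on chromosome 6 at 140547109 to 140547386. It had 35 tags in ILCP and 12 in EILP, a ratio of 2.58 (1.31 to 5.47). The next was on chromosome 10 at 43717123 to 43717544, with 40 tags in ILCP and 15 in EILP, a ratio of 2.36 (1.28 to 4.60). On the same chromosome the region at 116730710 to 116731020 had 30 tags in ILCP and 12 in EILP, a ratio of 2.22 (1.10 to 4.75). These intervals lie above 1 and overlap each other widely. Picking the largest of 223 ratios itself favours intervals above 1, and the intervals are not adjusted for that choice. The region on chromosome 3 at 105571517 to 105571832 had 32 and 13 tags in ILCP and EILP, and the one on chromosome 9 at 31109251 to 31109511 had 29 and 12. The chromosome 9 region lay 260 bp from an ALP peak, whereas the chromosome 6 region lay 11274 bp from the nearest one.

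In 43 of the TCF1-bound regions ILCP was at least 1.5-fold lower. Among those with at least 1 RPM at both stages the lowest ratio was on chromosome 4 at 135192598 to 135192827, with 13 tags in ILCP and 24 in EILP, a ratio of 0.480 (0.224 to 0.981). The region on chromosome 5 at 123229620 to 123229951 had 15 tags in ILCP and 27 in EILP, a ratio of 0.492 (0.243 to 0.959), and lay only 122 bp from an ALP peak. The region on chromosome 11 at 102331352 to 102331697 had 14 tags in ILCP and 25 in EILP, a ratio of 0.496 (0.238 to 0.992). The next ones, on chromosome 15 at 93043176 to 93043481 and on chromosome 8 at 109360449 to 109360784, had ratios of 0.579 (0.295 to 1.11) and 0.602 (0.305 to 1.16), so their intervals include 1. Picking the lowest ratios itself favours intervals below 1, and these intervals too are not adjusted for the choice.

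The regions that stood out most from local background in EILP were mostly not taller in ILCP. Ranked by the authors' fold enrichment in EILP, 7 of the first 10 had a lower RPM in ILCP, though a ranking by the EILP value itself favours this. The first was on chromosome 2 at 132029576 to 132029880, with 26 tags in ILCP, 32 in EILP and 10 at its TCF1 peak, and lay 34400 bp from the nearest ALP peak. The chromosome 4 region at 135192598 was second, with 8 tags at its TCF1 peak. Of the others, the region on chromosome 7 at 53026535 to 53026947 had 29 tags in ILCP and 23 in EILP. That at 107804441 to 107804915 had 31 and 30, which in RPM is a ratio of 0.916. On chromosome 9 at 121433928 to 121434298 the counts were 32 tags in ILCP and 29 in EILP, in RPM a ratio of 0.978. The chromosome 8 region already named, at 109360449, had 17 tags in ILCP and 25 in EILP. The region on chromosome 4 at 10980236 to 10980864, which at 629 bp was wider than the median of 291 bp, had 27 tags in ILCP and 22 in EILP. The region on chromosome 16 at 11284938 to 11285301 had 34 tags in ILCP and 23 in EILP. The region on chromosome 11 at 104417412 to 104417712 had 15 in ILCP and 20 in EILP, and that on chromosome 6 at 31035233 to 31035684 had 32 in ILCP and 36 in EILP.

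The TCF1 peaks in these regions ran from 3 to 15 tags in height with a median of 5, the same median as over all 6679 TCF1 peaks. Of the 479 regions, 56.2% (51.7 to 60.5) had 5 tags or fewer, against 75.7% in TCF1-bound regions found in EILP alone and 39.2% (37.5 to 40.9) in those open throughout. The authors' fold enrichment had a median of 5.15 in the 479 regions and 5.30 in those open throughout. In all, 493 TCF1 peaks overlapped the 479 regions. Of the regions, 14 held 2 peaks, and no region shared its strongest TCF1 peak with another. The highest TCF1 fold enrichment, 10.6, was on chromosome 4 at 135126672 to 135126954, where the TCF1 peak had 11 tags and its summit lay 4 bp from the EILP summit. That region had 25 tags in ILCP and 12 in EILP. On chromosome 6 at 145244401 to 145244689 the TCF1 peak had 10 tags (fold 9.44), and on chromosome 16 at 18148572 to 18148978 it had 13 tags (fold 9.35). A fold of 8.85, with 9 tags each, was reached on chromosome 11 at 120211486 to 120211932 and in the chromosome 16 region at 11284938, the only region in both rankings.

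TCF1 height did not go with the ILCP to EILP ratio in these regions (Spearman's rho -0.01 over 479 regions). The median log2 ratio was 0.37 in the 145 regions with 3 to 4 TCF1 tags, 0.27 in the 199 with 5 to 6 and 0.32 in the 135 with 7 to 15. Taller TCF1 peaks went with somewhat taller DHS, with rho 0.29 for EILP height and 0.28 for ILCP height. In the same 3 groups the median EILP height was 0.979, 0.979 and 1.33 RPM. These correlations are descriptions across regions of the same pooled libraries, in which the TCF1 counts span few values.

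The choice required a TCF1 peak to overlap a region, and the median region was 291 bp wide, which by itself limits how far the TCF1 summit can lie from the DHS summits. The distances are therefore a description, with no value for TCF1 placed without preference. The median distance of the TCF1 summit was 58 bp to the EILP summit and 55 bp to the ILCP summit, and 71.4% (67.2 to 75.3) of the regions had it within 100 bp of the EILP summit. In TCF1-bound regions open throughout, which were chosen by the same overlap and had a median width of 400 bp, the median was 57 bp and the share within 100 bp was 70.3% (68.7 to 71.9). The summits of the 2 stages lay a median of 35 bp apart. The TCF1 summit lay inside the region in 426 of the 479 (88.9%), against 93.7% of the TCF1-bound regions open throughout. Elsewhere only a flank of the TCF1 peak overlapped the region. In 445 of the 479 regions (92.9%) the TCF1 peak overlapped the tallest EILP peak itself. In the others it overlapped another stretch of the merged region.

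**Figure D4:**
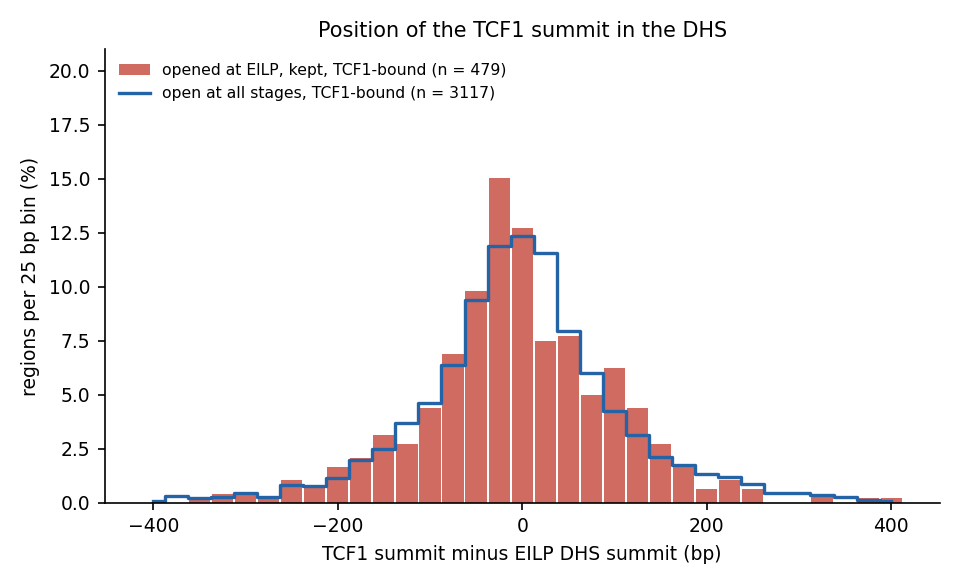
Position of the TCF1 summit relative to the EILP DHS summit (horizontal axis, bp, 25 bp bins) as a share of regions (vertical axis, percent), for the 479 TCF1-bound regions opened at EILP and kept (bars) and the 3117 TCF1-bound regions open at all stages (line). Both classes were chosen by overlap with a TCF1 peak, which limits the distance; their medians are 58 and 57 bp regardless of side, and 27 of the 3117 regions lie beyond the plotted range.

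The TCF1-bound regions lay nearer to chromatin that was already open in ALP than the unbound opened-and-kept ones. Their median distance to the nearest ALP peak was 3310 bp, against 5675 bp for the unbound regions. An ALP peak lay within 10 kb of 76.8% (72.8 to 80.4) of the TCF1-bound and 65.3% (64.3 to 66.3) of the unbound regions, and within 1000 bp of 23.6% (20.0 to 27.6) and 16.8% (16.1 to 17.6). The 103 TCF1-bound regions found in EILP alone were nearer still, with a median of 1340 bp and 41.7% (32.7 to 51.4) within 1000 bp. Local background is the tag density around a peak in its 10 kb window. With no control for DNase-seq, it counts the tags of the peak itself and of its neighbours. It was also higher at the TCF1-bound than at the unbound opened-and-kept regions. In ILCP its medians were 1.30 and 0.93 tags, and in EILP 1.03 and 0.76 tags. The part of local background in these distances was not tested.

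**Figure D5:**
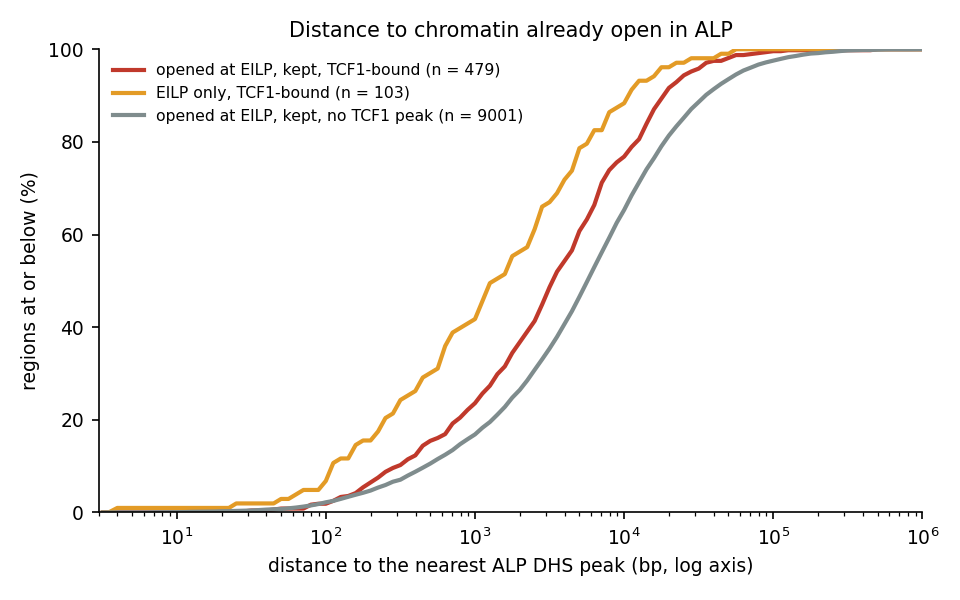
Cumulative share of regions (vertical axis, percent) by distance to the nearest ALP peak (horizontal axis, bp, log axis), for TCF1-bound regions opened at EILP and kept, TCF1-bound regions found in EILP alone, and unbound regions opened at EILP and kept. The medians are 3310, 1340 and 5675 bp.

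The median ILCP to EILP ratio was higher in regions farther from ALP peaks. Within 1 kb of an ALP peak the median log2 ratio was 0.17 in the 113 TCF1-bound regions and -0.0047 in the 1516 unbound ones. Between 1 and 10 kb it was 0.32 in 255 TCF1-bound and 0.09 in 4363 unbound regions, and beyond 10 kb it was 0.52 in 111 TCF1-bound and 0.15 in 3122 unbound regions. Beyond 10 kb, 76.6% of the TCF1-bound regions were higher in ILCP, and within 1 kb 55.8% were. Across the 479 TCF1-bound regions rho between distance and log2 ratio was 0.22, and across the 9001 unbound ones it was 0.08. From the nearest to the farthest group, the median EILP height of TCF1-bound regions fell, at 1.16, 1.07 and 0.979 RPM. Their median ILCP height was 1.26, 1.42 and 1.42 RPM. In unbound regions the EILP medians were 0.979, 0.890 and 0.801 RPM, and the ILCP medians 0.946, 0.946 and 0.867 RPM. Distance and EILP height had a rho of -0.17 across the TCF1-bound regions.

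The ALP region nearest to a TCF1-bound opened-and-kept region was itself TCF1-bound in 47 of 479 cases, or 9.81% (7.46 to 12.8). For the 103 TCF1-bound regions found in EILP alone this share was similar, at 8.74% (4.67 to 15.8). For unbound opened-and-kept regions it was 5.18% (4.74 to 5.65), and 5.26% (5.09 to 5.44) of all 65379 ALP regions were TCF1-bound. Another TCF1-bound region of any kind lay within 10 kb of 91 of the 479 regions, a share with an interval of 15.7% to 22.8%, and of 8.61% (8.05 to 9.21) of the unbound ones. Among the TCF1-bound regions found in EILP alone it did so for 19.4% (12.9 to 28.1), so neither share sets the 479 apart from that class. The same TCF1 peak can overlap a bound region and its neighbour, which raises both shares in the bound classes only. How often it did so was not counted, and 9 of the 479 regions had an ALP peak within 100 bp. The nearest ALP region was also open in EILP in 78.7% (74.8 to 82.1) of cases, close to the 75.9% (75.5 to 76.2) over all ALP regions.

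With neighbours among the 479 regions joined within 100 kb they formed 417 single regions and 31 pairs, and no group was larger than 2. Among all opened-and-kept regions, bound or not, another one lay within 100 kb of 81.0% of the 479 and 73.9% of the unbound regions, and within 20 kb of 34.9% and 29.8%. The tightest pair was on chromosome 8, where the region at 124808281 to 124808481 lay 283 bp from the one at 124808764 to 124809087. The first had 18 tags in ILCP and 16 in EILP, in RPM a ratio of 0.997, and the second 18 in ILCP and 24 in EILP. A pair 2516 bp apart on chromosome 6, from 114851475 to 114854552, was higher in ILCP at both sites, with 32 and 22 tags in ILCP and 17 and 11 tags in EILP. A pair 3976 bp apart on chromosome 8, from 63758299 to 63762794, had 17 tags at each site in ILCP and 12 and 11 tags in EILP. The TCF1-bound share of opened-and-kept regions was 5.05% (4.63 to 5.51) over the genome. By chromosome it was highest on chromosome 8, where 40 of the chromosome's opened-and-kept regions were TCF1-bound, or 8.35% (6.19 to 11.2), and lowest on X, with 1 of 159 or 0.629% (0.111 to 3.48).

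Some members sat at the edge of the choice. The 3 nearest an ALP peak were on chromosome 9 at 64020990 to 64021373, chromosome 18 at 81736229 to 81736427 and chromosome 4 at 106607543 to 106607797, at 16, 31 and 43 bp. The weakest TCF1 calls among the members had a −log10 q of 1.32 on chromosome 10 at 117385005 to 117385338, 1.47 on chromosome 1 at 64532963 to 64533345 and 1.53 on chromosome 1 at 133175311 to 133175488. Just outside, 3 opened-and-kept regions missed a TCF1 peak by 1, 4 and 5 bp, on chromosome 3 at 135356108 to 135356264, chromosome 11 at 98978192 to 98978425 and chromosome 13 at 51952882 to 51953075. In all, 38 of the 9001 unbound regions lay within 100 bp of a TCF1 peak.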

How the data were processed

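The 4 deposited files are peak lists of pooled libraries. Per the file headers, the authors used MACS version 2.1.1.20160309, kept 1 tag of 50 bp per position, extended tags to 100 bp and set the q cutoff to 0.05. DNase-seq tags were shifted by 50 bp, with no control and a 10 kb background window, and TCF1 had a pooled IgG control with windows of 1 and 10 kb, per the file headers. Positions are on mm9, according to the submitters' processing notes, and the aligner is not given in the sources used here. The deposited pileup signal counts the extended tags over the summit, the deposited fold enrichment is the ratio of pileup plus 1 to local background plus 1, and the lists give −log10 q-values as deposited. 

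Peaks were merged with Python 3.11.15, numpy 2.4.6 and pandas 2.3.3, and intervals came from scipy 1.17.1. A region took the tallest peak of each list, and background was solved from the fold enrichment. A height ratio was called from 1.5-fold. The steps were tested on simulated lists. Members, lists and rules for named regions were chosen with earlier results of these data known. Regions named are the highest in EILP and TCF1 fold enrichment, the highest and lowest in height ratio, the tightest pairs and those at the edge of the choice. Gene names and sequences of mm9 were not used here.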

Additional observations from a re-analysis of the deposited data

How the results depend on the processing

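Each value is the count or median over regions of pooled lists, and the spread between mice or libraries is unknown, and TCF1 calls of 3 to 5 tags limit which regions count as bound. No paired analysis was possible because the 4 lists each pool their libraries; for the same reason no replicate was left out. The planned shares with a TCF motif and in promoters were not run, since no sequence or annotation of mm9 was used.

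Of 75 alternative values for 7 main values, 67 stayed within the 95% interval of the main value over regions or, for the number of members, within 1.5 times of 479. The number ran from 366 to 478, and the median log2 ratio of ILCP to EILP height was above 0 in each setting. With heights scaled by their medians over regions open at all stages that ratio was 0.42, while unbound opened-and-kept regions then had 0.18. With the TCF1 summit, or at least 50% of the TCF1 peak, inside the region, the median distance of the summits was 50 bp. With no ALP peak allowed within 500 bp or 1000 bp, the median distance to ALP peaks was 4671 and 5199 bp, as the setting itself removes the nearest ones, and for 1000 bp the share within 100 kb of another member was 9.29%, against 12.9% as reported. At distances of 20 kb and 500 kb that share was 2.92% and 38.2%.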
